A study of Mus musculus with 18 samples.

Results

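Connexins form gap junctions between cells and pannexins form channels in a single membrane. The 6 genes Gja1, Gjb6, Gjc3, Gjb1, Gjd2 and Panx1 were taken by symbol from the counts and FPKM values (read counts scaled to gene length and to library total) of 18 libraries, and all 6 were among the 55291 gene symbols. They encode the astrocyte connexins Cx43 (Gja1) and Cx30 (Gjb6), the oligodendrocyte connexins Cx29 (Gjc3) and Cx32 (Gjb1), the neuronal connexin Cx36 (Gjd2) and pannexin 1 (Panx1).

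All mice were wild-type male C57BL/6J, 6 weeks old when the AAV was injected into the right CA3 region, and all carried AAV-DJ GfaABC1D-EGFP-Rpl10a, which puts a GFP-tagged ribosomal protein under the astrocyte promoter GfaABC1D, so that the tag marks cells that the virus reached and that use this promoter. In the AAV control group the right hippocampus was collected 2 weeks after this injection with no second injection. In the KA group, kainic acid (a glutamate receptor agonist, 50 nL of 20 mM) was injected into the right dentate gyrus 2 weeks after the AAV, and tissue was collected 14 days later, so that the AAV control also differed from KA in age and in time since the AAV. In the PBS group, PBS was injected after the AAV, with the time to collection not given in the sources used here. Each group had 3 samples, each a pool of 3 to 4 hippocampi, and each homogenate gave an IP library (RNA on GFP-tagged ribosomes, pulled down with an anti-GFP antibody) and an input library (RNA of the whole hippocampus). Samples #1 and #2 of KA and AAV control were sequenced in run 1, samples #3 of both in run 2 and all PBS samples in run 3, so that group and run cannot be told apart in any comparison with PBS.

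Astrocytes couple to each other through channels of Cx43 and Cx30, which pass potassium, glucose and small messengers through the astrocyte network. Oligodendrocytes carry Cx32, and astrocytes connect to them through mixed junctions in which an astrocyte connexin faces an oligodendrocyte connexin. Cx29 lies along small myelinated fibres, Cx36 forms the electrical synapses of interneurons, and pannexin 1 opens a pore for ATP in neurons and glia.

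In the GENCODE M21 annotation of GRCm38, Gja1 spans bases 56377330 to 56402513 of chromosome 10 (plus strand) and Gjb6 bases 57123303 to 57133611 of chromosome 14 (minus strand). Gjc3 spans 137953461 to 137963098 of chromosome 5 (minus strand), Gjb1 101376378 to 101385629 of chromosome X (plus strand) and Panx1 15002128 to 15045478 of chromosome 9 (minus strand). None of these 5 overlapped another annotated gene. Gjd2, at 114009601 to 114013619 of chromosome 2 (minus strand), overlaps the transcript A530058N18Rik of the other strand, and whether the counting used strand is not given in the sources used here.

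The 250 bases before the RefSeq start of Gja1, Gjb6 and Gjb1 are shown because these were the 3 connexins whose IP level passed a test against a control. The windows are chr10:56377050-56377299 (plus strand), chr14:57133612-57133861 (minus strand) and, for the most downstream of 4 RefSeq start windows of Gjb1, chrX:101383482-101383731 (plus strand), all on GRCm38.p6. Capitals mark TGANTCA (the AP-1 motif) and ACAAAG (the SOX core), searched on both strands.
Gja1: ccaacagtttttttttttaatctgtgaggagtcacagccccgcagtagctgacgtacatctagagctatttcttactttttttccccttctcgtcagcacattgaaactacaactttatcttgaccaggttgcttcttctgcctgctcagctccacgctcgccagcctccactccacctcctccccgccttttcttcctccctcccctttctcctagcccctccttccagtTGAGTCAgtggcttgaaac
Gjb6: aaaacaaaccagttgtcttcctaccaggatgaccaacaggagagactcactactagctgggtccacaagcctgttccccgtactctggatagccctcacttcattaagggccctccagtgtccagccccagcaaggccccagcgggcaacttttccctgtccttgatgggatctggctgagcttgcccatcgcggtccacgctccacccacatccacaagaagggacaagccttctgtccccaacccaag
Gjb1: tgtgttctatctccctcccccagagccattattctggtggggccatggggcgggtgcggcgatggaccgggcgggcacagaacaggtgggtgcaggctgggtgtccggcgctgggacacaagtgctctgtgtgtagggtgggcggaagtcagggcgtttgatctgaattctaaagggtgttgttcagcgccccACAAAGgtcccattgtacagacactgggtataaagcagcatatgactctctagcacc
The Gja1 window held 1 TGANTCA, which 6.75% of 32851 windows of this length held, and the Gjb1 window held 1 ACAAAG, which 16.5% held. TTGGC (the NFI half-site, in 41.5% of windows) and TTCNNNGAA (the STAT motif, in 7.02%) were searched in the same way and occurred in none of the 3 windows, and the Gjb6 window held none of the 4 motifs. Of the other 3 windows of Gjb1, 1 held ACAAAG and 1 held TTGGC. These matches describe letters in a window and were not tested against any expression value.

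The libraries held between 7991681 and 16032180 counts (median 10313126). All libraries, inputs included, are labelled as hippocampal astrocytes. Checked against this label, the IP was rich in astrocyte RNA: all 10 astrocyte markers were higher in IP than in input in each of the 3 groups. Oligodendrocyte markers were also present in IP, and none of the 10 was at 0 in all 3 libraries of a group. Their summed FPKM was 277, 368 and 1194 in AAV control IP #1, #2 and #3, so that #3 stood apart, and it was 302 to 639 in PBS IP and 1450 to 2833 in KA IP. Values for Gjc3 and Gjb1 that rest on AAV control IP are therefore given with and without AAV control #3. Both genes were themselves highest in #3 within AAV control IP and within PBS IP. Leaving out #3 thus lowers their level in that control, so a pass without it is no separate support. Between KA and AAV control in IP, 4 of 8 neuron markers and 3 of 5 tested interneuron markers were higher (1 interneuron marker was lower), as was 1 of 2 microglia markers, while 1 endothelial and 2 choroid or ependymal markers tested did not pass and no marker of precursors or fibroblasts passed the FPKM filter.

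**Figure D1:**
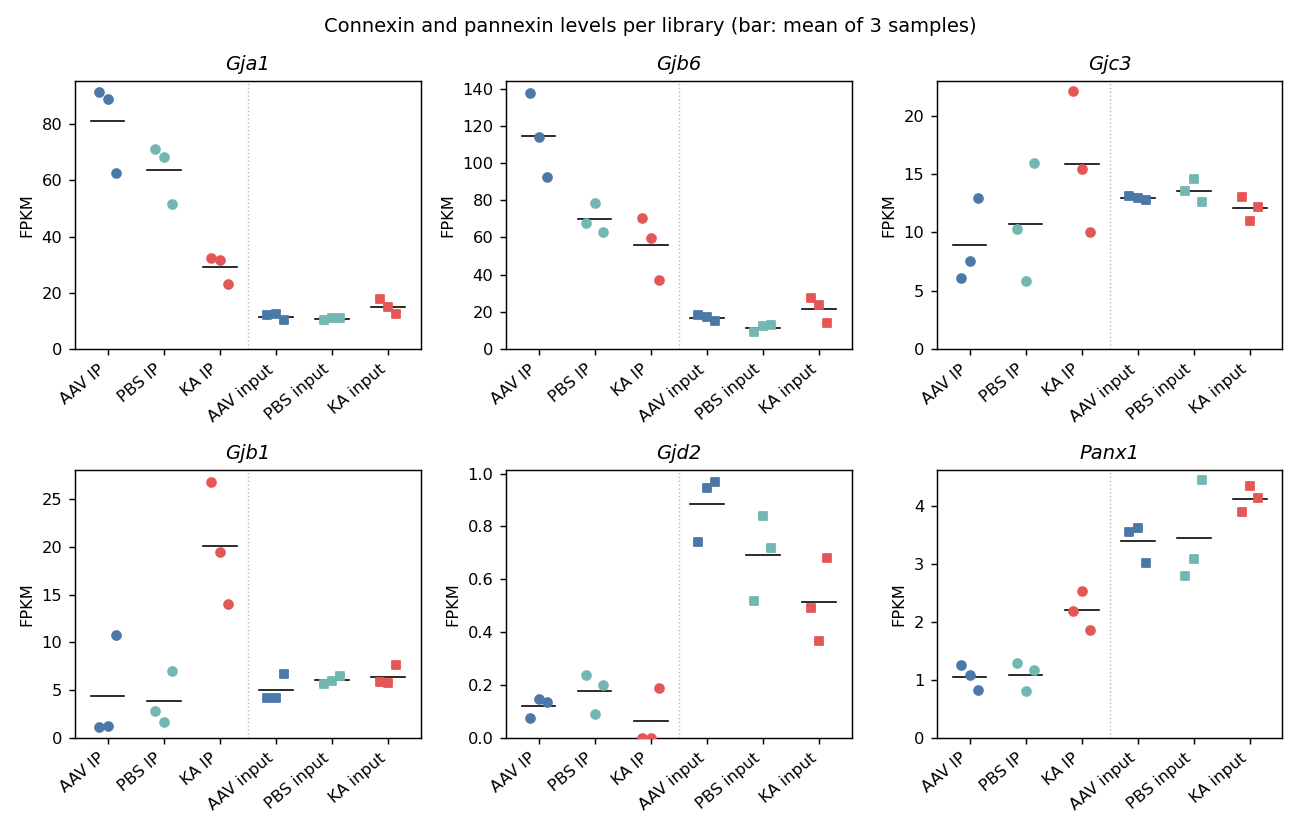
FPKM of each member in all 18 libraries. Each point is a library (circles IP, squares input, samples #1 to #3 from left to right), the bar is the mean of 3 samples, and the vertical axes differ between panels. Gja1 in the 3 KA IP libraries (23.2 to 32.3) sits below all other IP libraries (51.6 to 91.2), while Gjb1 in KA IP (14.1 to 26.8) sits above them (1.14 to 10.7).

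The astrocyte connexins fell in the IP of KA mice against AAV control. In that comparison Gja1 and Gjb6 were lower and the other 2 members in that fit did not pass. Against PBS, only Gja1 of the pair passed the test. In each comparison the test was edgeR's quasi-likelihood test on the deposited counts, over genes with FPKM above 1 in all compared libraries, with p-values adjusted over all genes tested and a threshold of 0.05.

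Gja1 FPKM in IP was 91.2, 88.9 and 62.7 in AAV control #1 to #3. In PBS it was 71.0, 68.3 and 51.6, and in KA 32.3, 31.6 and 23.2. The KA libraries lay below every other IP library, and AAV control and PBS overlapped. The log2 fold change of KA against AAV control was -1.42 ± 0.20 (SE, n = 3 and 3, adjusted p = 0.00325), which is 2.68-fold lower. Against PBS it was -1.16 ± 0.25 (adjusted p = 0.00562), or 2.23-fold lower. The first of these was -1.33 to -1.53 when any 1 library was left out, and the second -1.02 to -1.34, and each stayed past the threshold. In bulk libraries such as these, fewer cells of a type and less RNA per cell cannot be told apart.

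Gjb6 FPKM in IP was 138, 114 and 92.6 in AAV control. It was 67.6, 78.5 and 63.1 in PBS and 70.5, 59.5 and 37.3 in KA. The KA range lay below AAV control and overlapped PBS, and PBS also lay below AAV control. Against AAV control Gjb6 fell in KA IP, with a log2 fold change of -0.998 ± 0.229 (adjusted p = 0.0205). This call was lost without KA IP #2 (adjusted p = 0.0805), without AAV control IP #1 (0.0698) and without AAV control IP #2 (0.0577), with log2 fold changes from -0.89 to -1.03. Against PBS the log2 fold change was -0.36, with a 95% interval of -0.88 to 0.17 (adjusted p = 0.259).

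Read against all genes, 20.1% of 9729 tested genes passed between KA and AAV control in IP (9.74% lower), and 2 of the 4 members tested were among the lower ones. Between KA and PBS, 37% of 9847 genes passed (18.9% lower and 18.2% higher), and of the 4 members tested 1 was lower and 1, Gjb1, was higher. The ranges of the groups did not overlap in 37% of tested genes against AAV control, among them Gja1, Gjb6 and Gjb1, and in 46% against PBS, among them Gja1 and Gjb1. Both controls were compared with the same KA libraries.

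Gja1 was lower relative to Gjb6 in KA IP. The Gja1 to Gjb6 FPKM ratio was 0.457, 0.531 and 0.623 in KA IP, below AAV control (0.663, 0.779 and 0.677) and PBS (1.05, 0.870 and 0.818). The AAV control and PBS ratios in IP did not overlap each other either. In input the KA ratios (0.637 to 0.868) overlapped AAV control (0.647 to 0.730) and PBS (0.842 to 1.14). This ratio was not tested. Of the 10 astrocyte markers, 3 were lower and 2 higher in KA than in AAV control IP, with a median log2 fold change of -0.73, beside a median of -0.02 over all tested genes. Those that fell included the glutamate transporter genes Slc1a3 (-1.19 ± 0.24, adjusted p = 0.0122) and Slc1a2 (-1.42 ± 0.31, adjusted p = 0.0164). Gfap, which encodes the filament protein of reactive astrocytes, rose by 2.49 ± 0.33 on the log2 scale (adjusted p = 0.00265).

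In input, both genes were higher in KA than in PBS. Gja1 FPKM was 12, 12.5 and 10.3 in AAV control input. It was 10.4, 11.01 and 10.98 in PBS input and 17.8, 14.97 and 12.4 in KA input, where the lowest KA library lay just below AAV control #2 and above all PBS libraries. Gjb6 FPKM in input was 18.5, 17.1 and 15.2 in AAV control, 9.16, 12.4 and 13.1 in PBS, and 27.4, 23.5 and 14.3 in KA. Against PBS both rose in KA input, Gja1 by a log2 fold change of 0.46 ± 0.11 (adjusted p = 0.0136) and Gjb6 by 0.90 ± 0.18 (adjusted p = 0.00491), in a comparison in which 27.7% of 10849 genes passed and 15.5% were higher. The ranges of the groups did not overlap in 35.9% of these genes. The Gja1 call was lost without KA input #1 (adjusted p = 0.0628), PBS input #2 (0.0546) or PBS input #3 (0.0727) and in a fit over all 18 libraries (0.163).

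Against AAV control input neither gene passed, with log2 fold changes of 0.38 (95% interval 0.05 to 0.71, adjusted p = 0.216) for Gja1 and 0.35 (-0.11 to 0.81, adjusted p = 0.420) for Gjb6. In this comparison 4.49% of 10809 genes passed and 0 of the 5 members tested did, in edgeR, DESeq2 and limma-voom alike, with Gja1 alone at an unadjusted p under 0.05 in edgeR (0.0300). Of the 10 astrocyte markers 5 were higher in KA than in AAV control input and 6 than in PBS input, and none was lower. With sequencing run as a covariate Gja1 passed (0.37, adjusted p = 0.0363). Within run 1 alone, with 2 samples a group, both passed (Gja1 0.42, adjusted p = 2.35e-04, and Gjb6 0.52, adjusted p = 1.34e-04). Of all genes, 1731 of 10809 passed with the run covariate and 4781 of 11489 within run 1. Run 2 held 1 sample of each group and gave no test.

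**Figure D2:**
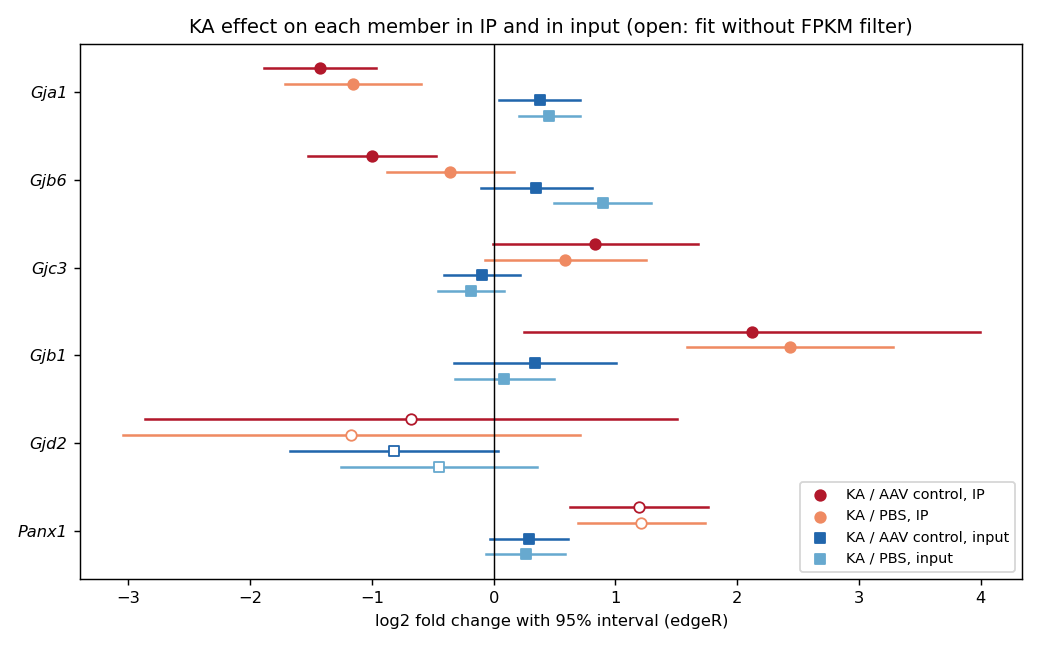
Log2 fold change of KA against AAV control and against PBS for each member, in IP (circles) and input (squares), with 95% intervals from edgeR. Filled symbols come from genes past the FPKM filter and open symbols from the fit without it. For Gja1 both IP values (-1.42 and -1.16) lie left of 0 and both input values (0.38 and 0.46) right of it.

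The KA effect on the astrocyte connexins differed between IP and input when that difference itself was tested. With AAV control as baseline, the IP effect minus the input effect was -1.78 ± 0.23 for Gja1 (adjusted p = 6.12e-04) and -1.33 ± 0.31 for Gjb6 (adjusted p = 0.0154), on the log2 scale. With PBS as baseline it was -1.63 ± 0.28 (adjusted p = 0.00132) and -1.26 ± 0.33 (adjusted p = 0.0125). Of all tested genes, 13.2% of 9180 passed with the AAV baseline and 25.5% of 9305 with the PBS baseline (5.99% and 14.7% lower). The 2 baselines share the KA libraries. Astrocyte markers moved with the connexins: 6 of 10 were lower in this difference with each baseline, with medians of -1.32 and -1.25, beside -0.02 and -0.07 over all tested genes. Whether the connexins differed from other astrocyte genes was not tested. The Gjb6 difference lost its call without KA #2 (adjusted p = 0.0871 and 0.0518), AAV control #1 (0.0744), AAV control #2 (0.0574) or PBS #2 (0.0523).

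The IP to input ratio of both genes was smallest in KA. For Gja1 it was 7.60, 7.13 and 6.10 in AAV control, 6.81, 6.20 and 4.70 in PBS, and 1.81, 2.11 and 1.88 in KA. For Gjb6 it was 7.43, 6.68 and 6.08 in AAV control, 7.39, 6.34 and 4.83 in PBS, and 2.57, 2.53 and 2.61 in KA. Both genes stayed above input in every homogenate, and every KA ratio lay below every control ratio. The share of all genes with ratios set apart in this way was not computed. Tested between IP and input, Gja1 was enriched by a log2 fold change of 2.95 ± 0.19 in AAV control (adjusted p = 1.05e-04), 2.72 ± 0.25 in PBS (3.57e-06) and 1.16 ± 0.15 in KA (6.96e-04). Gjb6 was enriched by 2.91 ± 0.18 (adjusted p = 1.02e-04), 2.76 ± 0.21 (1.40e-06) and 1.57 ± 0.24 (0.00162). In these comparisons 39.7%, 56.3% and 34.4% of tested genes passed in AAV control, PBS and KA, and 19.4%, 28.6% and 19.1% were higher in IP. Members higher in IP numbered 2 of 4 tested in AAV control, 2 of 4 in PBS and 3 of 5 in KA. The astrocyte markers showed the same order, with all 10 higher in IP in each group and medians of 3.38 in AAV control, 3.20 in PBS and 1.995 in KA. Of the 10 oligodendrocyte markers, none passed in AAV control (median -0.28), 4 were lower in IP in PBS (-0.60) and all 10 were higher in KA (1.49). The part of these shifts in the connexin ratios was not tested.

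**Figure D3:**
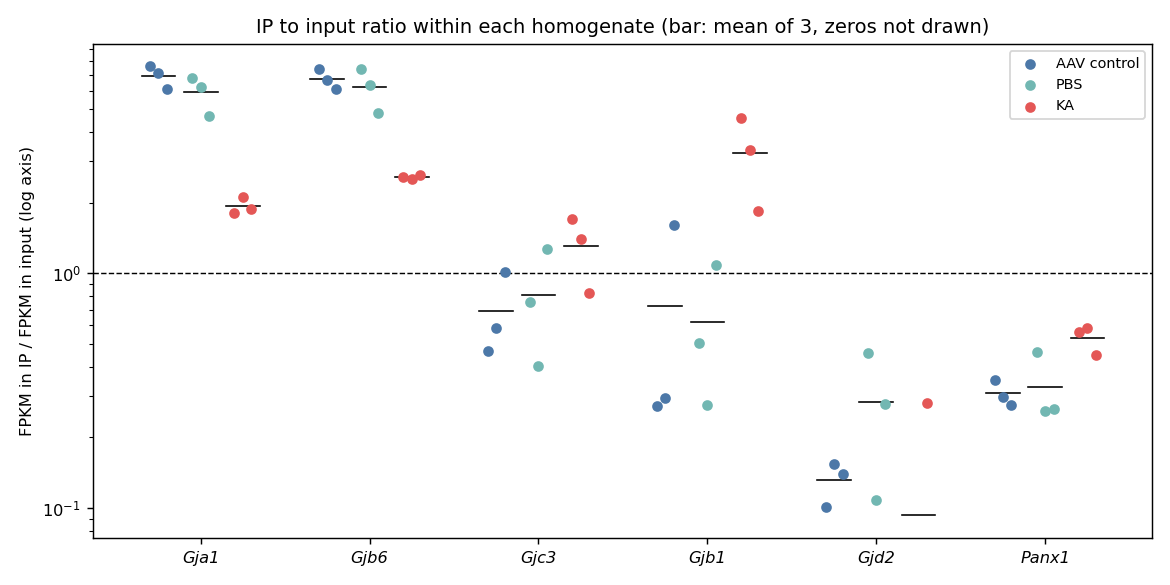
FPKM in IP divided by FPKM in input of the same homogenate, on a log axis, for each member and group. Each point is a homogenate, the bar the mean of 3 and the dashed line a ratio of 1. KA points of Gja1 (1.81 to 2.11) and Gjb6 (2.53 to 2.61) lie below all control points, and the Gjb1 points of KA (1.84 to 4.60) lie above them.

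The oligodendrocyte connexin Gjb1 rose in KA IP against PBS. Its FPKM was 1.14, 1.23 and 10.7 in AAV control IP. It was 2.85, 1.64 and 7.03 in PBS IP and 26.8, 19.5 and 14.1 in KA IP. KA lay above all other IP libraries, and within the controls the #3 libraries were far above #1 and #2. Against PBS, Gjb1 rose by a log2 fold change of 2.44 ± 0.38 (adjusted p = 0.00108), or 5.41-fold, and passed with any 1 library left out (2.13 to 3.07).

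Against AAV control, the log2 fold change was 2.12 ± 0.81, with a 95% interval of 0.25 to 3.99, and did not pass (adjusted p = 0.105). It passed in a fit over all 18 libraries (2.11, adjusted p = 0.0163) and with limma-voom (2.94, adjusted p = 0.0274). It did not pass with edgeR's filterByExpr in place of the FPKM filter (2.19, adjusted p = 0.0834). Leaving out AAV control IP #3 gave 4.18 (adjusted p = 1.13e-04). Over the libraries left out in turn, the value ranged from 1.65 to 4.18 (adjusted p up to 0.237). Same-numbered KA and AAV control samples deviated together but also share a sequencing run, so whether the numbers pair them is not known. With the replicate number as a block the value was 2.73 (adjusted p = 0.0382). With sequencing run as a covariate it was 2.69 (adjusted p = 0.0129), and within run 1 it was 4.35 (adjusted p = 3.99e-07). Of all genes, 3914 of 9729 passed with the run covariate and 4823 of 10474 within run 1.

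In input, Gjb1 FPKM was 4.17 to 6.66 in AAV control, 5.66 to 6.45 in PBS and 5.78 to 7.64 in KA, and the ranges overlapped. The log2 fold change of KA was 0.34 against AAV control (95% interval -0.32 to 1.005, adjusted p = 0.612) and 0.09 against PBS (-0.32 to 0.50, adjusted p = 0.755). With PBS as baseline, the KA effect in IP exceeded that in input by 2.35 ± 0.45 on the log2 scale (adjusted p = 0.00264), although in a fit over all 18 libraries the adjusted p was 0.0703. With AAV control as baseline the difference was 1.79 ± 0.96 (adjusted p = 0.267), with the replicate block 2.16 (adjusted p = 0.0125), and without AAV control #3 3.53 (adjusted p = 2.06e-04). Over the samples left out in turn, this difference ranged from 1.45 to 3.53 (adjusted p up to 0.564).

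The IP to input ratio of Gjb1 was 0.272, 0.294 and 1.61 in AAV control, 0.504, 0.274 and 1.09 in PBS, and 4.60, 3.37 and 1.84 in KA. It was above 1 in all 3 KA homogenates and, among the controls, in #3 of each group. In KA the IP exceeded input by a log2 fold change of 1.84 ± 0.23 (adjusted p = 6.53e-04). In AAV control the value was 0.04 ± 0.86 (adjusted p = 0.972) and became -2.01 without AAV control IP #3 (adjusted p = 0.00583). In PBS it was -0.60 (adjusted p = 0.134), with the replicate block -0.71 (adjusted p = 0.0106) and without PBS IP #3 -1.16 (adjusted p = 0.00222).

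Gjc3, the other oligodendrocyte connexin, showed a smaller difference that did not pass the test. Its FPKM was 6.12, 7.59 and 12.9 in AAV control IP, 10.3, 5.85 and 16.0 in PBS IP, and 22.1, 15.4 and 10.01 in KA IP, with overlapping ranges. The log2 fold change of KA in IP was 0.83 (95% interval -0.01 to 1.68, adjusted p = 0.149) against AAV control and 0.59 (-0.07 to 1.25, adjusted p = 0.144) against PBS. Without AAV control IP #3 the first was 1.30 (adjusted p = 0.00905), and within run 1 it was 1.52 (adjusted p = 6.06e-05). Over the libraries left out in turn, the first ranged from 0.57 to 1.30 (adjusted p up to 0.396). In the fit over all 18 libraries, which called all 4 members tested, it was 0.83 and passed (adjusted p = 0.0471). With edgeR's filterByExpr in place of the FPKM filter the second passed, at 0.76 (adjusted p = 0.0406).

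Gjc3 input levels were close in all groups, at 13.1, 12.9 and 12.8 in AAV control, 13.6, 14.5 and 12.6 in PBS and 13.1, 10.96 and 12.2 in KA. Its IP to input ratio was 0.466, 0.588 and 1.01 in AAV control, 0.758, 0.402 and 1.27 in PBS, and 1.70, 1.403 and 0.823 in KA. As for Gjb1, #3 of each control group was above 1, but KA #3 was below it and the groups overlapped. In KA the IP exceeded input by 0.59 on the log2 scale (adjusted p = 0.0741), which passed with the replicate block (0.55, adjusted p = 0.0196), with filterByExpr (0.67, adjusted p = 0.0395) and without KA IP #3 (0.79, adjusted p = 0.00645). In AAV control the value was -0.36 (adjusted p = 0.417) and became -0.82 without AAV control IP #3 (adjusted p = 0.00688). In PBS it was -0.27 (adjusted p = 0.313) and became -0.51 without PBS IP #3 (adjusted p = 0.0450). The difference of the KA effect between IP and input was 0.95 (adjusted p = 0.177, with the replicate block 0.99 and 0.0235) with the AAV baseline and 0.78 (adjusted p = 0.123, with filterByExpr 1.0035 and 0.0402) with the PBS baseline. The first was 1.39 without AAV control #3 (adjusted p = 0.009995) and 1.64 within run 1 (adjusted p = 6.26e-05), and the second 1.18 without PBS #3 (adjusted p = 0.0453). Over the samples left out in turn, the first ranged from 0.69 to 1.39 (adjusted p up to 0.474). The second ranged from 0.51 to 1.18 (adjusted p up to 0.350).

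Both oligodendrocyte connexins stood beside oligodendrocyte markers that moved in the same libraries. Of the 10 markers, all 10 were higher in KA than in PBS IP (median log2 fold change 2.18) and 4 were higher than in AAV control IP (median 1.63), while in input 2 and 0 of 10 were higher. Gjb1 was 0.945%, 0.993% and 0.970% of the marker sum in KA IP and 0.410%, 0.333% and 0.900% in AAV control IP. In PBS IP it was 0.690%, 0.543% and 1.10%. The shares of KA and of the #3 control libraries thus lay close together, and those of the other control libraries were lower. Gjc3 went the other way, with 0.691% to 0.785% of the marker sum in KA IP, 1.08% to 2.21% in AAV control IP and 1.93% to 2.50% in PBS IP. Whether the amount of oligodendrocyte RNA in the libraries accounts for the Gjb1 and Gjc3 values was not tested.

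**Figure D4:**
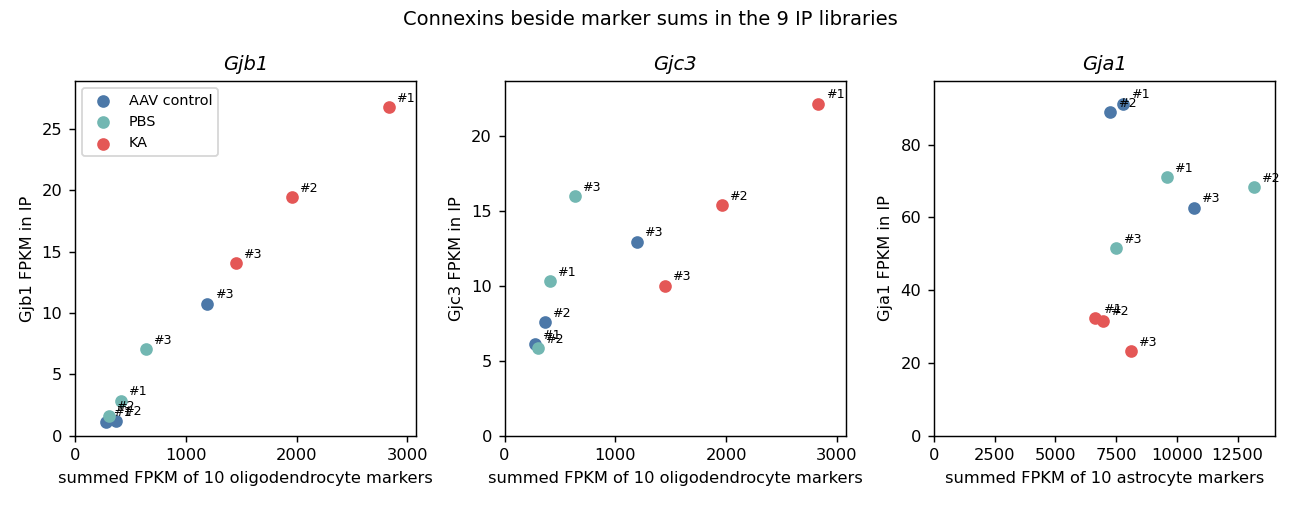
FPKM of Gjb1 and Gjc3 against the summed FPKM of 10 oligodendrocyte markers, and of Gja1 against that of 10 astrocyte markers, in the 9 IP libraries (numbers are samples). AAV control #3 has a marker sum of 1194 and a Gjb1 FPKM of 10.7, between the other controls and KA, and the KA libraries have the lowest Gja1 at astrocyte sums of 6647 to 8109. The astrocyte sum pools markers that rose and markers that fell in KA IP.

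The balance of astrocyte to oligodendrocyte connexins in IP was lower in KA than in any control library. Gja1 and Gjb6 together made 229, 203 and 155 FPKM in AAV control IP and 103, 91.0 and 60.5 in KA IP. Gjc3 and Gjb1 together made 7.25, 8.81 and 23.7 in AAV control IP and 48.9, 34.8 and 24.1 in KA IP. The ratio of the first sum to the second was 31.6, 23.0 and 6.55 in AAV control IP, 10.6, 19.6 and 4.99 in PBS IP, and 2.10, 2.61 and 2.51 in KA IP. In input it was 1.76, 1.73 and 1.31 in AAV control, 1.02, 1.14 and 1.26 in PBS and 2.40, 2.30 and 1.35 in KA. The KA IP ratios lay below all control IP ratios and the highest input ratio, 2.40, lay within them. Beside this, the ratio of summed oligodendrocyte to astrocyte markers was 0.179 to 0.426 in KA IP, 0.0355 to 0.112 in AAV control IP and 0.0230 to 0.0854 in PBS IP. The astrocyte marker sums overlapped between the groups (6647 to 8109 in KA, 7267 to 10706 in AAV control and 7487 to 13174 in PBS), and Gja1 as a share of that sum was 0.286% to 0.485% in KA, 0.585% to 1.22% in AAV control and 0.518% to 0.742% in PBS. The sum pools opposite changes: against AAV control IP, 2 of the 10 markers were higher in KA (Gfap by 2.49) and 3 lower (Slc1a2 by -1.42). Its overlap therefore does not show equal amounts of astrocyte RNA.

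**Figure D5:**
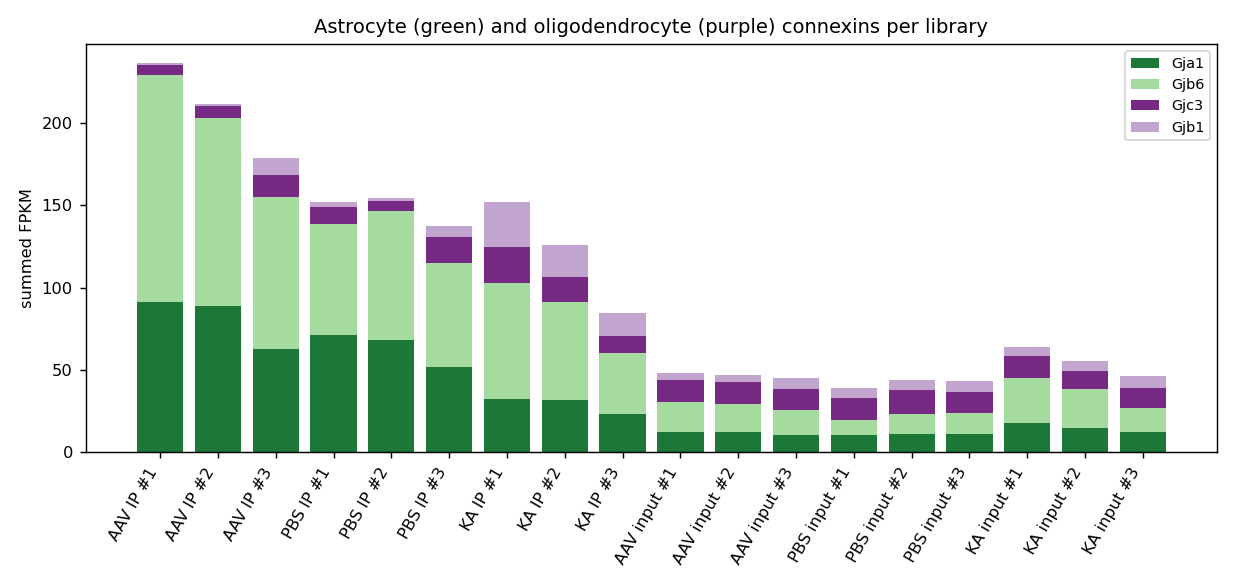
Summed FPKM of Gja1 and Gjb6 (green) and Gjc3 and Gjb1 (purple) in each of the 18 libraries. The green part is 155 to 229 in AAV control IP and 60.5 to 103 in KA IP, and the purple part is 24.1 to 48.9 in KA IP against 7.25 to 23.7 in AAV control IP.

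Panx1 rose in KA IP. Its FPKM was 1.25, 1.08 and 0.828 in AAV control IP, 1.29, 0.799 and 1.17 in PBS IP, and 2.19, 2.53 and 1.86 in KA IP. Every KA library lay above every control library, which overlapped each other. Since 1 AAV control and 1 PBS library lay under an FPKM of 1, Panx1 was tested in IP in the fit without the FPKM filter. That fit gave log2 fold changes of 1.20 ± 0.29 against AAV control (adjusted p = 6.58e-04) and 1.21 ± 0.27 against PBS (adjusted p = 8.39e-05), with 6.81% of 31675 and 8.69% of 37476 genes higher. It gives almost no weight to a gene's own spread between replicates, so the values with filterByExpr are set beside it: 1.18 ± 0.21 (adjusted p = 0.00746) and 1.17 ± 0.24 (adjusted p = 0.00206). The counts behind these values were 55 to 125 in the controls and 123 to 159 in KA. Without AAV control IP #3 Panx1 passed the FPKM filter, at 1.02 (adjusted p = 0.00602), and without PBS IP #2 at 0.90 (adjusted p = 0.0190). Other cell types also express Panx1, and the summed FPKM of 8 neuron markers was 269 to 351 in KA IP, 130 to 163 in AAV control IP and 123 to 211 in PBS IP, with 4 of 8 higher in KA against AAV control and 5 of 8 against PBS. That of 7 microglia markers was 19.4 to 20.4 in KA IP, 6.14 to 10.9 in AAV control IP and 7.45 to 11.2 in PBS IP. Most of the 7 were under the FPKM filter, and Aif1, which encodes the microglial protein Iba1, was higher by 1.66 against AAV control (adjusted p = 0.00215) and 1.74 against PBS (adjusted p = 3.74e-04). P2ry12 went the other way, by -0.55 against AAV control (adjusted p = 0.245) and -0.75 against PBS (adjusted p = 0.0350). Cd68, tested against PBS only, was higher (1.79, adjusted p = 0.00554). The oligodendrocyte marker sums given above were higher in KA IP too. The part of these cell types in the Panx1 values was not tested.

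Panx1 was lower in IP than in input in all groups. Input FPKM was 3.55, 3.61 and 3.02 in AAV control, 2.79, 3.08 and 4.43 in PBS and 3.88, 4.33 and 4.13 in KA, where the log2 fold change of KA was 0.29 (95% interval -0.03 to 0.61, adjusted p = 0.335) against AAV control and 0.26 (-0.06 to 0.59, adjusted p = 0.208) against PBS. The IP to input ratio was 0.353, 0.298 and 0.274 in AAV control, 0.464, 0.259 and 0.264 in PBS, and 0.564, 0.584 and 0.450 in KA, with 1 PBS homogenate inside the KA range. IP lay below input by a log2 fold change of -0.70 ± 0.14 in KA (adjusted p = 0.00579), and with filterByExpr by -1.54 ± 0.20 in AAV control (adjusted p = 7.94e-04) and -1.60 ± 0.22 in PBS (adjusted p = 1.96e-05). Of all genes 15.3% were lower in IP in KA, and 9.69% and 10.7% in AAV control and PBS in the fit without the FPKM filter. The KA effect in IP exceeded that in input by 1.01 ± 0.30 with the PBS baseline (adjusted p = 0.0113, and 0.0155 with filterByExpr), a direction in which 4.41% of genes passed. With the AAV baseline it was 0.94 ± 0.35 (adjusted p = 0.102), and it passed with filterByExpr (0.92, adjusted p = 0.0274).

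Gjd2, the connexin of electrical synapses between neurons, was near the limit of detection in IP. It had 2 to 5 counts in AAV control IP, 3 to 11 in PBS IP, and 0, 0 and 6 in KA IP. A count of 0 allows up to 3 counts, which corresponds to an FPKM of 0.0936 and 0.100 in these KA libraries. In input it had 17 to 35 counts in AAV control (0.739 to 0.966 FPKM), 15 to 26 in PBS (0.519 to 0.839) and 10 to 20 in KA (0.365 to 0.681). All input libraries lay above all IP libraries. Of genes past the FPKM filter, IP and input did not overlap in 50.6% in AAV control, 58.1% in PBS and 49.6% in KA.

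Gjd2 was tested in the fit without the FPKM filter, which gives almost no weight to a gene's own spread between replicates. IP was lower than input by a log2 fold change of -2.70 ± 0.62 in AAV control (adjusted p = 2.91e-04), -1.89 ± 0.53 in PBS (0.00248) and -2.62 ± 0.73 in KA (0.00298, where 8.59% of genes were lower). With filterByExpr the adjusted p was 0.00223, 0.00307 and 0.0510, the last for -2.62 ± 0.90 in KA. In input, KA lay below AAV control in all 3 samples, in a comparison in which 22.6% of 10809 genes past the FPKM filter did not overlap. The log2 fold change of -0.82 ± 0.43 did not pass (adjusted p = 0.405). Against PBS it was -0.45 (95% interval -1.25 to 0.36, adjusted p = 0.559). In IP a KA effect was not detectable at this depth, with 95% intervals of -2.86 to 1.51 against AAV control and -3.04 to 0.71 against PBS. Of 8 neuron markers, 8 were lower in IP than in input in AAV control, 8 in PBS and 6 in KA.

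PBS and AAV control did not differ by the test in any member, in IP or in input. The fits with the FPKM filter called 0 of 10667 genes in IP and 0 of 10924 in input (0%), with 1153 and 901 genes at an unadjusted p under 0.05, and DESeq2 called 16 and 30. Gjd2 in both and Panx1 in IP were tested without this filter, in fits that called 261 of 37249 genes in IP (0.701%) and 234 of 30951 in input (0.756%), where filterByExpr called 3 and 0. Gjb6 had the smallest unadjusted p of the members, with every PBS library below every AAV control library (13.4% of tested genes did not overlap in IP and 10.9% in input), by a log2 fold change of -0.65 (95% interval -1.22 to -0.09, adjusted p = 0.439) in IP and -0.53 (-0.83 to -0.22, adjusted p = 0.561) in input. Without AAV control input #3, the input difference of Gjb6 passed (-0.55, adjusted p = 0.00136) and so did that of Gjb1 (0.61, adjusted p = 0.0175). In that fit 4076 of 11164 genes passed.

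Ordered by mean FPKM, Gja1 ran from AAV control IP (80.9 ± 15.9, SD, n = 3) through PBS IP (63.6 ± 10.5) and KA IP (29.0 ± 5.03) to KA input (15.1 ± 2.71), AAV control input (11.6 ± 1.15) and PBS input (10.8 ± 0.327). Ranges of neighbours overlapped between the first and second groups and among the 3 input groups. Gjb6 had the same order, with means of 115 ± 22.6, 69.7 ± 7.91, 55.8 ± 16.9, 21.7 ± 6.75, 16.9 ± 1.66 and 11.5 ± 2.08, and overlap of PBS IP with KA IP and of KA input with AAV control input. Gjb1 was highest in KA IP (20.1 ± 6.39), apart from the next group, KA input (6.41 ± 1.06), and the 5 lower groups overlapped each neighbour. For Gjc3 every neighbour overlapped, from KA IP (15.8 ± 6.08) down to AAV control IP (8.88 ± 3.59). Panx1 was highest in KA input (4.12 ± 0.225) and lowest in AAV control IP (1.05 ± 0.213), and KA IP (2.19 ± 0.335) overlapped no other group.

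The other connexin and pannexin genes were mostly at low levels. Of 17 listed, 2 had no count in any library and 6 reached an FPKM above 1 in any library. Gjb2, which encodes Cx26, rose in KA IP by a log2 fold change of 1.07 ± 0.27 against AAV control (adjusted p = 0.0283) and 0.9997 ± 0.2645 against PBS (adjusted p = 0.0139). Its FPKM was 3.11 to 4.78 in KA IP, above AAV control IP (1.39 to 2.21) and PBS IP (1.71 to 2.40).

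Panx2, a pannexin of neurons, was 3.25 ± 0.45 FPKM (SD, n = 3) in KA IP, below PBS IP by a log2 fold change of -0.88 (adjusted p = 0.0197), and its difference from AAV control was -0.43 (adjusted p = 0.173). In input, KA against PBS showed Gjd3 (1.41, adjusted p = 0.0186) higher and Panx2 (-0.67, adjusted p = 0.00300) lower, and against AAV control neither passed.

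Of 14 genes for proteins that bind or anchor connexins and pannexins, 13 were tested between KA and AAV control in IP, where 1 was higher, 1 was lower and the median log2 fold change was -0.17. Among all tested genes 10.4% were higher and 9.74% lower. Dbn1, which encodes the actin-binding protein drebrin, fell by 2.08 ± 0.28 on the log2 scale (adjusted p = 0.00270), from a mean of 168 to 38.6 FPKM. Cav1, which encodes caveolin 1, rose by 1.53 ± 0.18 (adjusted p = 0.00177). Against PBS, 12 were tested: Cav1 rose (1.79, adjusted p = 6.76e-04), while Dbn1 (-1.56, adjusted p = 0.00876), Src (-0.79, adjusted p = 0.00856) and Tjp1 (-0.67, adjusted p = 0.0280), which encodes the scaffold ZO-1 that binds Cx43, fell. In that comparison 18.2% of all tested genes were higher and 18.9% lower. In input, 1 of 11 was lower against AAV control (Dbn1, -0.59, adjusted p = 0.0399), beside 0.944% of all tested genes. Against PBS 5 of 12 were higher in input, beside 15.5% of all tested genes.

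Mlc1 and Hepacam, which encode a pair of membrane proteins of astrocyte junctions, did not pass between KA and control IP. Their KA effect did differ between IP and input, by -1.37 for Mlc1 (adjusted p = 0.01001) and -0.92 for Hepacam (adjusted p = 0.0265) with the AAV baseline, and by -1.35 (adjusted p = 0.00584) and -0.84 (adjusted p = 0.0168) with the PBS baseline. Of the partner genes, 3 of 11 and 6 of 12 passed in this contrast, all lower, beside 5.99% and 14.7% of all tested genes.

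Genes with the most similar pattern to each member were found by Pearson's r of log2(FPKM + 1) across the 18 libraries, among 9001 genes with FPKM above 1 in all of them, as a description in which the points share group, run and IP or input. For Gja1 they were Asrgl1 (0.995), Slc1a3 (0.994) and Pacsin3 (0.994), and for Gjb6 Hadh (0.993), Il11ra1 (0.989) and Slc9a3r1 (0.988). For Gjb1 they were Mag (0.959), Opalin (0.956) and Trf (0.955), and for Gjc3 Fa2h (0.892), Mal (0.862) and Gpr62 (0.859). Mag, Opalin and Mal are among the oligodendrocyte markers and Slc1a3 is among the astrocyte markers. The members correlated at 0.965 between Gja1 and Gjb6 and at 0.804 between Gjc3 and Gjb1, while Gja1 with Gjb1 gave -0.338.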

How the data were processed

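RNA was measured in 9 IP and 9 input libraries of mouse hippocampus, 3 of each per group. The reads were aligned by the authors to mm10 with STAR, and featureCounts and edgeR are named in the submitters' processing notes, with no versions. For each library the authors deposited raw counts per gene symbol, and FPKM values that for 99.8% of 17097 genes with at least 20 counts were the count over the library's total and over 1 length per gene. The annotation, the strand setting and the treatment of multiply mapping reads are not given in the sources used here.

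Counts were tested with edgeR's quasi-likelihood test (edgeR 4.0.16, R 4.3.3) after TMM scaling, with p-values adjusted over all genes tested by the Benjamini-Hochberg method. As in the study, genes entered a test with FPKM above 1 in all libraries it compared. Adjusted p under 0.05 passed, without the limit on fold change that the study's calls add. Members under that filter were tested in a fit of all genes with a count. Standard errors and 95% intervals came from the fold change and the test statistic, and cover the spread between samples in the filtered fits. In the fit of all genes with a count, a gene's own spread between replicates had almost no weight. The scripts were tested on simulated counts. Alternatives used DESeq2 1.42.0, limma 3.58.1 (voom), DESeq2 size factors, no FPKM filter, the replicate number as a block, all 18 libraries, sequencing run as a covariate and each library left out in turn. The filterByExpr filter and the fits within run 1 were chosen after seeing the data. Same-numbered IP and input libraries came from 1 homogenate, and their residuals correlated at 0.155 to 0.752. Same-numbered KA and AAV control samples correlated at 0.348, 0.529 and 0.551 in IP and 0.352, 0.444 and 0.550 in input. They also share a sequencing run, and differently numbered samples were not compared. Whether the numbers pair these samples beyond the run is therefore not known. The main fits have no block, and the blocked value is given where it changes a call. Between PBS and the other groups the samples share only a number.

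The members, the family, partner and marker lists and the tests were chosen with earlier results of these data known. Named genes were the members, list genes that were tested or passed, and the 3 genes with the highest correlation to each member with FPKM above 1 in all libraries, and the glial markers Slc1a2, Slc1a3 and Gfap were named after their values were seen. Of the symbols, 96.4% matched a GENCODE M21 gene name. No 2 libraries of a group agreed within counting noise. Each sample pooled mice, so p-values of the filtered fits describe the spread between pools. Limits for a count of 0 cover counting error only. Protein sequences were not used here, and 1 gene of the family list is not reported here.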

Additional observations from a re-analysis of the deposited data

Results flagged for a closer look

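The effect of KA differed between IP and input in 6 results, each by the test of that difference in edgeR (IP effect minus input effect on the log2 scale). With AAV control as baseline the difference was -1.78 for Gja1 (adjusted p = 6.12e-04) and -1.33 for Gjb6 (adjusted p = 0.0154). With PBS as baseline it was -1.63 for Gja1 (adjusted p = 0.00132), -1.26 for Gjb6 (adjusted p = 0.0125) and 2.35 for Gjb1 (adjusted p = 0.00264). For Panx1 with the PBS baseline it was 1.01 (adjusted p = 0.0113 without the FPKM filter). The last was lost without PBS #2 (0.73, adjusted p = 0.0845, in the FPKM filter that Panx1 then passed). The samples behind the 2 baselines are the same for KA, so the values are not independent of each other.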

How the results depend on the processing

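Of 673 alternative values for single members, 604 kept direction and side of the threshold, 15 lost and 42 gained a call and 12 turned sign. Counts of members that passed were 2 for KA against AAV control in IP, and 5 without the FPKM filter, 4 over all 18 libraries, 5 within run 1 and 1 to 5 with a library left out. In the same order, the genes that passed were 1960 of 9729, 3933 of 31675, 2968 of 9729, 4823 of 10474 and 843 to 3369. For KA against PBS in IP, 2 became 4 without the FPKM filter and 4 with filterByExpr, and 2 to 3 with a library left out. Over all genes this was 3647 of 9847, 7028 of 37476, 6394 of 15819 and 2507 to 3749. In input, 0 against AAV control became 1 with the run covariate and 2 within run 1, and 2 against PBS became 1 over all 18 libraries and 1 to 2 with a library left out. Against AAV control the genes that passed were 485 of 10809, 1731 of 10809 and 4781 of 11489. Against PBS they were 3006 of 10849, 1023 of 10849 and 1716 to 4820. PBS against AAV control in input had 0 to 2 with a library left out, beside 0 to 4076 over all genes. IP against input had 2 in AAV control (4 without the FPKM filter, 4 with filterByExpr, 2 to 5 with a library left out), 2 in PBS (5, 4 and 2 to 4) and 4 in KA (4 to 5 with a library left out). Over all genes, these fits called 3959 of 9961 in AAV control (6322 of 31504, 5714 of 15446, 2845 to 4358). They called 5853 of 10401 in PBS (8789 of 37110, 8365 of 16038, 4887 to 6073) and 3477 of 10098 in KA (2288 to 4136). The difference of KA effects had 2 with the AAV baseline (4 without the FPKM filter, 4 with the replicate block, 5 within run 1, 1 to 5 with a sample left out) and 3 with the PBS baseline (5 without the FPKM filter, 5 with filterByExpr, 2 to 4 with a sample left out). Genes that passed were 1210 of 9180 with the AAV baseline (1788 of 34618, 3286 of 9180, 3396 of 9872, 506 to 2085). With the PBS baseline they were 2373 of 9305 (3450 of 39047, 3508 of 17130, 1308 to 2112). The fit without the FPKM filter tests more genes and borrows their spread, and the cause of the other changes was not tested.

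Signs turned only where the main value had not passed. For PBS against AAV control in IP these were Gjc3 without PBS IP #3 (-0.063 to 0.69 over the libraries left out), Gjb1 with limma-voom (0.33), the replicate block (0.26) and without AAV control IP #3 (-0.94 to 1.71), and Panx1 with filterByExpr (0.0040). In input they were Gjb1 of KA against PBS without KA input #3 (-0.12 to 0.19) and Panx1 of PBS against AAV control without PBS input #3 (-0.12 to 0.11). Gjb1 in IP against input of AAV control turned with limma-voom (-0.77), the replicate block (-0.48) and without AAV control IP #3 (-2.01), input #1 (-0.11) or input #2 (-0.08), with a range of -2.01 to 0.52. Its turned value without AAV control IP #3 passed (adjusted p = 0.00583).

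The replicate block changed the calls of Gjb1 and Gjc3 given in the text and no other member call. It moved the genes that passed between KA and AAV control from 1960 to 3356 in IP and from 485 to 1101 in input, in IP against input from 3959 to 6102 in AAV control and from 3477 to 5336 in KA, in the AAV-baseline difference from 1210 to 3286 and, for PBS against AAV control in input, from 0 to 1. Without AAV control #3, the genes that passed were 3369 for KA against AAV control in IP and 2643 in input, and for PBS against AAV control 1122 in IP and 4076 in input. On TMM-normalized CPM in place of FPKM, mean IP to input ratios were 7.84 for Gja1 and 7.59 for Gjb6 in AAV control, and 2.40 for Gja1, 3.20 for Gjb6 and 0.661 for Panx1 in KA, against 6.94, 6.73, 1.93, 2.57 and 0.533 on FPKM. With Gja1 against Gjb1 alone, mean ratios were 1.49 in KA IP, 52.9 in AAV control IP, 24.6 in PBS IP, 2.47 in AAV control input and 1.80 in PBS input, against 2.41, 20.4, 11.7, 1.60 and 1.14 for the sums.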
